A study of Mus musculus with 24 samples.

Results

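The comparison set the stroma of tumours in which EGR2 was silenced against the stroma of tumours in which GAL was silenced, in mice on the control diet. It was made on 9 of the 24 arrays of the series, chosen by their titles: 3 arrays with the hairpin shEGR2_40.9, 3 with shEGR2_38.9 and 3 with the GAL hairpin, shGAL. The difference reported is the mean of both EGR2 hairpins minus shGAL, for every gene, so a positive value means a higher level with shEGR2. On this diet the stroma of shEGR2 tumours had much higher levels of blood and lymphatic vessel genes, of the smooth muscle genes Mylk and Myh11 and of matrix genes. The stroma of shGAL tumours had higher levels of 12 of 20 cytokine genes, of single cornified envelope and hair genes, and of 7 of 24 hypoxia genes. Of all genes tested, 16.0% were called higher with shGAL.

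RNA came from a fraction of the stroma labelled neural, isolated with magnetic beads from orthotopic tumours of SCC25, an established human oral squamous carcinoma line, in NSG (NOD-SCIDγ) mice, which lack T, B and natural killer cells. The hairpins were carried by the human tumour cells, and the arrays carry mouse probe sets, so no value here, mouse Egr2 and Gal included, checks whether silencing worked. EGR2 was targeted by 2 hairpins and GAL by 1, so a difference between target genes cannot be told apart from a difference between single hairpins on the shGAL side. The non-targeting hairpin PLKO on the control diet (3 arrays) and the same EGR2 and GAL hairpins on a palmitic acid-rich diet, written PA-rich (9 arrays), served as references. The series calls the 3 arrays of a group technical replicates and does not say how many animals they came from, so the p-values measure the spread between arrays only. Whether RNA of the human cells bound to these mouse probes was not tested.

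EGR2 is a zinc finger transcription factor best known for switching on myelin genes in Schwann cells, and galanin, the product of GAL, is a neuropeptide released by sensory and other neurons and by injured nerve. Tumour stroma holds vessels, mural cells, fibroblasts, immune cells and nerve. Vessel endothelium responds to vascular endothelial growth factors through the receptors Flt1, Kdr and Flt4 and to angiopoietins through Tek and Tie1, and lymphatic endothelium depends on the transcription factor Prox1.

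Values are deposited log2 intensities. A gene was called dim and left out when the mean of its brightest probe set was under 6.27 (at the 40th percentile of probe set means), and 11844 genes were tested with limma in 1 model of all 24 arrays. A gene was called when its Benjamini-Hochberg adjusted p was under 0.05. Median array values lay between 6.71 and 6.81. The third shEGR2_38.9 array stood apart: its mean was 7.09, against 7.15 to 7.17 for all other arrays of the series, and the 3′ minus 5′ difference of its Gapdh control probe sets was 0.762, against -0.118 to 0.077. The same difference for actin was -0.439, the lowest of the series, against -0.257 to -0.057. On the first principal component of the 9 arrays, with 51.4% of the variance, the 3 shGAL arrays lay from 18.7 to 27.9 and the 6 shEGR2 arrays from -21.7 to -2.85. The second component, with 19.3%, set the third shEGR2_38.9 array at -26.5 apart from the other 8, which lay from -7.08 to 11.3. The arrays were also grouped into scan batches, which their titles do not state. Of these batches, 2 held both sides of the comparison with 1 array each. Batch 4 held shEGR2_38.9 and shGAL, and batch 6 held shEGR2_40.9 and shGAL.

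The neural label was set against its markers. Of 17 Schwann and glial markers, 7 were tested and 7 were dim (S100b, Foxd3, Scn7a, Cdh2, Fabp7, Gfap and Art3). Of 19 neuronal markers, 9 were tested and 9 were dim, Uchl1, Snap25, Syt1 and the neurofilaments Nefl, Nefm and Nefh among them. The mean level of the tested glial markers ran from 7.86 to 8.00 over the 9 arrays, and that of the neuronal markers from 7.28 to 7.63. Of 20 keratinocyte markers, 17 were tested and 1, Flg, was dim, and their mean level ran from 10.5 to 11.4. Mouse Krt14, a basal keratinocyte keratin, had group means of 13.2, 13.1 and 13.2 with shEGR2_40.9, shEGR2_38.9 and shGAL. In such bulk samples fewer cells of a type and less RNA per cell cannot be told apart.

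Over all genes, 3464 were called on the control diet, 1565 higher with shEGR2 (13.2% of those tested) and 1899 lower (16.0%). These shares are the background for every list count on the control diet given below. Differences of more than 1 on the log2 scale were 201 higher and 31 lower, and the median difference of all genes was -0.048. Every shEGR2 array lay above every shGAL array for 1019 genes (8.60%) and below for 1168 (9.86%). Of the 3464 called genes, 3412 had both EGR2 hairpins on the same side of shGAL. With shEGR2_40.9 alone 1160 genes were higher (9.79%) and 851 lower (7.19%), or 492 lower without the second shGAL array, and with shEGR2_38.9 alone 1592 were higher (13.4%) and 2371 lower (20.0%). When the fit was restricted to the 9 arrays compared, 980 genes were higher and 730 lower. Without the second shGAL array, 1214 were higher and 1162 lower, and without the third shEGR2_38.9 array 1787 were higher and 1946 lower.

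Blood vessel genes rose together with shEGR2. Of 19 endothelial markers tested, 18 were higher and 1, Flt1, was lower, with a median difference of 1.496 against -0.048 over all genes. Tie1, an orphan receptor of the angiopoietin system, measured 10.37, 10.08 and 10.12 with shEGR2_40.9, 10.95, 10.94 and 10.59 with shEGR2_38.9, and 8.12, 7.95 and 8.68 with shGAL. The lowest shEGR2 array was well above the highest shGAL array, and the difference of 2.26 ± 0.16 (SE of the model, 6 against 3 arrays), a 4.78-fold higher signal, had an adjusted p of 1.03e-09 in limma. Cdh5, the VE-cadherin of endothelial junctions, measured 11.49, 11.21 and 11.44 with shEGR2_40.9, 12.03, 12.02 and 12.15 with shEGR2_38.9, and 9.77, 9.77 and 10.14 with shGAL, a difference of 1.83 ± 0.14 (limma adjusted p = 1.62e-09). The groups did not overlap for either gene.

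The same held across receptors, junction proteins and transcription factors of the endothelium. The VEGF receptor Kdr differed by 1.90 ± 0.20, the angiopoietin receptor Tek by 1.92, the adhesion molecule Pecam1 by 1.72 ± 0.18, and Cd34 by 1.96. The tight junction protein Cldn5 differed by 1.42, the ETS family transcription factor Erg by 1.43, the sialomucin Emcn by 1.63 and the guidance receptor Robo4 by 1.496. The smallest rises were those of Sox18 at 0.50 and Eng, a co-receptor of the TGF-β family, at 0.88. For all 18 genes that rose, every shEGR2 array lay above every shGAL array. Vwf, the clotting factor carrier stored in endothelium, rose by 1.62 ± 0.31, with shEGR2_40.9 arrays at 9.19, 9.15 and 9.11, shEGR2_38.9 arrays at 8.36, 8.21 and 7.57, and shGAL arrays at 7.21, 6.79 and 6.93.

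Flt1 went the other way. This VEGF receptor, which also exists as a soluble form that binds VEGF away, measured 9.52, 9.59 and 9.86 with shEGR2_40.9, 9.91, 9.79 and 9.10 with shEGR2_38.9, and 10.82, 10.66 and 10.76 with shGAL. Its difference was -1.12 ± 0.15 (limma adjusted p = 4.25e-06). Its probe sets did not all have one sign: the other 2 above the dim level differed by -0.79 and 0.29, and the mean of its probe sets by -0.54. Against PLKO the shGAL level of Flt1 was 1.29 higher (limma adjusted p = 1.88e-05), and the shEGR2 level differed by 0.18 (limma adjusted p = 0.398). Vegfa itself, the main ligand of Kdr and Flt1, was lower with shEGR2 by 0.46 on the log2 scale, as given with the hypoxia genes.

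Lymphatic genes had the highest median difference of the 44 lists. Of 9 tested, 7 rose with shEGR2 and 0 fell, with a median difference of 2.07. Prox1, which specifies lymphatic identity, measured 10.09, 9.24 and 9.54 with shEGR2_40.9, 10.27, 10.75 and 9.58 with shEGR2_38.9, and 7.11, 6.36 and 7.65 with shGAL. That made a difference of 2.87 ± 0.29, a 7.31-fold higher signal (limma adjusted p = 9.53e-08), with no overlap between the groups. Its other 2 probe sets differed by 2.87 and 2.30. Flt4, the receptor for the lymphatic growth factor VEGF-C, measured 10.77, 10.31 and 10.61 with shEGR2_40.9, 11.31, 11.52 and 10.78 with shEGR2_38.9, and 8.68, 8.14 and 9.02 with shGAL, a difference of 2.27 ± 0.18 (limma adjusted p = 4e-09).

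Lyve1, a hyaluronan receptor of lymphatic endothelium, rose by 1.19 ± 0.08, Reln, which encodes the secreted glycoprotein reelin, by 2.50, the integrin chain Itga9 by 2.07, Mmrn1 by 2.12 (1.18 as the mean of its probe sets) and Thy1 by 1.18. The 2 members that were not called were Pdpn, whose difference was 0.26 (limma adjusted p = 0.0615), and Nrp2, at -0.03, for which another probe set gave 0.84. Without the third shEGR2_38.9 array, the counts were again 18 higher and 1 lower for the endothelial list and 7 higher for the lymphatic list, with medians of 1.67 and 2.22. Within scan batch 4 the medians were 1.86 and 2.44, and within batch 6 they were 1.45 and 1.77.

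PLKO shows where each side of the contrast lay. With shEGR2, 10.8% of all genes were called higher than PLKO and 14.5% lower, and with shGAL 7.15% higher and 9.84% lower, both against the same 3 PLKO arrays. Tie1 was 1.75 above PLKO with shEGR2 (limma adjusted p = 5.96e-08) and 0.50 below it with shGAL (0.0695). Cdh5 was 1.65 above and 0.18 below (limma adjusted p of 1.44e-08 and 0.499). Of the lymphatic genes, Prox1 was 1.72 above PLKO with shEGR2 (limma adjusted p = 0.000116) and 1.15 below it with shGAL (0.0187), and Lyve1 was 0.40 above (0.000953) and 0.79 below (5.71e-06). Flt4, Reln, Mmrn1 and Thy1 were likewise called below PLKO with shGAL, and Itga9, at -0.41, was not (limma adjusted p = 0.217).

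**Figure D1:**
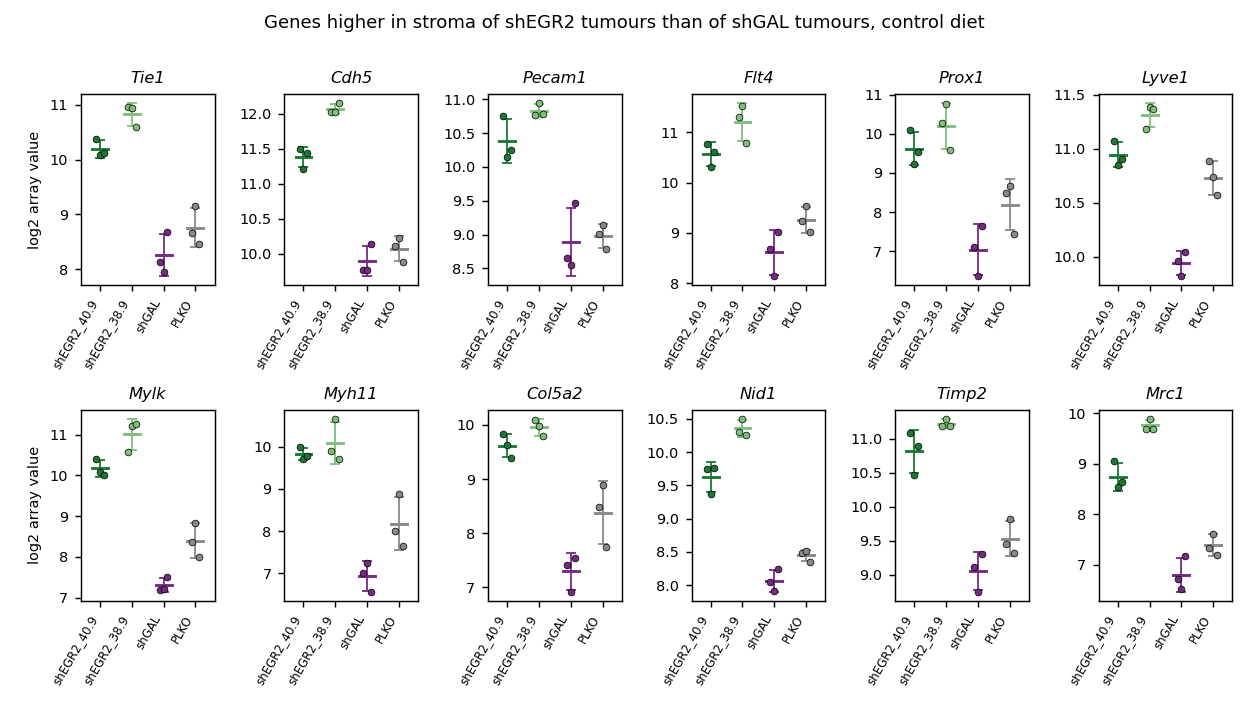
Log2 array values of 12 genes in stroma on the control diet with shEGR2_40.9, shEGR2_38.9, shGAL and PLKO; points are arrays, bars the mean and SD of 3 arrays, and each panel has its own scale that does not start at 0. For every gene shown the 6 shEGR2 arrays lie above the 3 shGAL arrays, as for Tie1 with 10.08 as the lowest shEGR2 value and 8.68 as the highest with shGAL.

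The smooth muscle genes Mylk and Myh11 were among the 3 highest differences of the comparison, while the other mural genes called rose less. Of 10 pericyte and smooth muscle markers tested, 5 rose and 0 fell, with a median of 0.24. Mylk, the kinase that triggers smooth muscle contraction, measured 10.41, 10.09 and 10.02 with shEGR2_40.9, 10.57, 11.20 and 11.25 with shEGR2_38.9, and 7.19, 7.22 and 7.50 with shGAL. At 3.29 ± 0.23, a 9.75-fold higher signal (limma adjusted p = 7e-10), it was the highest difference of all 11844 genes. Its other 2 probe sets gave 0.53 and 1.65, and the mean over its probe sets gave 1.82. Myh11, the smooth muscle myosin heavy chain, measured 9.99, 9.71 and 9.79, then 9.91, 10.67 and 9.72, against 7.0, 7.24 and 6.55 with shGAL, a difference of 3.03 ± 0.31 (limma adjusted p = 1.07e-07), or 1.54 as the mean of its probe sets. Both genes separated the groups completely.

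Acta2, smooth muscle actin, rose by 0.82 ± 0.08, the pericyte regulator Rgs5 by 0.71 and Mcam by 0.37. The receptor Pdgfrb, which defines pericytes, differed by 0.11 (limma adjusted p = 0.38), Notch3 by -0.09, Cnn1 by -0.08 and Des by -0.12, and none of these was called. Mylk was 2.19 above PLKO with shEGR2 and 1.09 below it with shGAL (limma adjusted p of 3.03e-07 and 0.00621).

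Matrix genes rose, led by fibrillar collagens whose arrays spread widely. Of 16 interstitial matrix genes tested, 13 rose and 0 fell, with a median of 0.84. Col3a1 measured 11.21, 10.83 and 10.15 with shEGR2_40.9, 11.11, 10.29 and 8.51 with shEGR2_38.9, and 7.27, 6.52 and 8.27 with shGAL. The lowest shEGR2 array, the third of shEGR2_38.9, was only just above the highest shGAL array, and the difference of 3.00 ± 0.85 (limma adjusted p = 0.0107) was not called with the scan batch as a block (adjusted p = 0.0898) or without the second shGAL array (0.0714). As the mean of its probe sets Col3a1 differed by 1.53. Col1a1 differed by 2.61 ± 0.60, with shGAL arrays at 6.83, 6.98 and 6.99 and shEGR2 arrays from 8.19 to 10.52 around a median of 9.68.

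Col5a2, which co-assembles with type I collagen, was tighter: 9.83, 9.62 and 9.39 with shEGR2_40.9, 10.10, 9.99 and 9.79 with shEGR2_38.9, and 7.42, 6.91 and 7.55 with shGAL. Its difference was 2.49 ± 0.24 (limma adjusted p = 6.12e-08), or 1.64 as the mean of its probe sets. Col6a1 rose by 1.67, the adhesive glycoprotein Fn1 by 1.86 ± 0.23, the proteoglycan Bgn by 1.98 and Postn by 1.05. The fibroblast list had 5 of its 13 markers tested, since Pdgfra, Col1a2, Lum, Fap and 4 others were dim. Of the 5, Col1a1, Col3a1 and Thy1 rose, and Dcn, a proteoglycan of fibroblasts, differed by -0.13 (limma adjusted p = 0.325).

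Basement membrane and matrix turnover genes followed, with exceptions. Of 15 basement membrane genes, 7 rose and 1 fell, with a median of 0.23. Nid1, which links laminin to collagen IV, measured 9.75, 9.37 and 9.76 with shEGR2_40.9, 10.31, 10.50 and 10.26 with shEGR2_38.9, and 8.04, 7.91 and 8.24 with shGAL, so that the groups were far apart (difference 1.93 ± 0.12, limma adjusted p = 1.1e-10). The collagen IV chains Col4a1 and Col4a2 rose by 1.29 and 1.80, the laminin chain Lamc1 by 0.49 and the proteoglycan Hspg2 by 0.75, another probe set of which gave -0.12. Lama3, a laminin chain of epithelia, fell by 0.49. As means of their probe sets Hspg2 and Lama3 differed by 0.32 and -0.28. Among 14 proteases and inhibitors 6 rose and 2 fell: the inhibitors Timp2 and Timp3 rose by 1.97 and 1.92 and the metalloproteases Adam12 and Adamts4 by 2.24 and 1.64. Mmp13, a collagenase, was lower with shEGR2, at 8.91, 8.63 and 8.28, then 9.24, 9.03 and 9.43, against 9.75, 9.59 and 10.09 with shGAL, a difference of -0.89 ± 0.21 (limma adjusted p = 0.00314). Both sides lay above PLKO for Mmp13, shEGR2 by 1.79 and shGAL by 2.68 (limma adjusted p of 1.77e-06 and 1.86e-07).

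Macrophage markers could be tested only in part. Of 14, 6 were tested and 7 were dim, Adgre1, Itgam, C1qa, C1qb and Lyz2 among them, and 2 of the 6 rose. Mrc1, the mannose receptor of macrophages and of lymphatic and liver endothelium, measured 9.06, 8.54 and 8.63 with shEGR2_40.9, 9.70, 9.89 and 9.69 with shEGR2_38.9, and 6.71, 6.51 and 7.17 with shGAL. Its difference of 2.45 ± 0.14 (limma adjusted p = 8.59e-11) separated the groups. Cd14 rose by 0.88, while Csf1r and Cd68 differed by -0.13 and 0.17 and were not called. Of 4 red cell genes tested 2 rose, among them Alas2, an enzyme of haem synthesis, at 1.33. Not yet described of the 15 largest rises without overlap between the groups were Scn3a, Calcrl, Crispld2, Zfp521, Fgl2, Selenop and Clic5. They differed by 3.11, 2.91, 3.00, 2.66, 2.64, 2.42 and 2.42. Zfp521 differed by 1.69 as the mean of its probe sets, and the shGAL mean of Fgl2 was under the dim level.

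Short promoter stretches of genes from both sides are shown. Tie1 and Robo4 rose with the other vessel genes. Sprr2d and Plet1 were among the 15 largest falls without overlap between the groups. They hold the 250 bases before the start of transcription in RefSeq, build GRCm38.p6, written 5′ to 3′ on the strand of the gene. Capitals mark AGGAAG, a form of the site bound by ETS factors such as Erg, in the first 2, and TGANTCA, a form of the AP-1 site, in the last 2; both strands were searched.
Tie1, chr4:118489850-118490099, minus strand: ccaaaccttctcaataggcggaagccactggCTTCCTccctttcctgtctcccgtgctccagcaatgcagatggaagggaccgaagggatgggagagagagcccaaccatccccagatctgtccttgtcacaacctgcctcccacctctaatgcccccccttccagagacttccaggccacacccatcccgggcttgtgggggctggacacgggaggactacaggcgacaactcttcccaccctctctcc
Robo4, chr9:37401722-37401971, plus strand: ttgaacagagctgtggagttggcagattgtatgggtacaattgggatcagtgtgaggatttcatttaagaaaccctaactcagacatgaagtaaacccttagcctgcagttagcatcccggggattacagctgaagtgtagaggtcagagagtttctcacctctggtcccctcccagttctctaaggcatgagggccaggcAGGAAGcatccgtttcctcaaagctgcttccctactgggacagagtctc
Sprr2d, chr3:92338890-92339139, plus strand: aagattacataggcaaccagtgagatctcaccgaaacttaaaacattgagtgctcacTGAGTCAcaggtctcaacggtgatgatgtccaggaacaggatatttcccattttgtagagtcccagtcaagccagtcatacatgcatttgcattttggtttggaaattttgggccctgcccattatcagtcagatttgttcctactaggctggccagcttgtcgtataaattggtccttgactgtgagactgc
Plet1, chr9:50494275-50494524, plus strand: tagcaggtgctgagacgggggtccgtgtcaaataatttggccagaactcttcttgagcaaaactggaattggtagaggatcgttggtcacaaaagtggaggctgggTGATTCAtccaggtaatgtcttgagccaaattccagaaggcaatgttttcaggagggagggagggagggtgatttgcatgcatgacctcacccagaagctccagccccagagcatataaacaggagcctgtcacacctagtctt
Over all 32851 such windows of 27025 genes, AGGAAG was found in 29.5% and TGANTCA in 6.75%. The 25 called endothelial and lymphatic genes that rose had 20 windows for 15 genes, of which 8 (40.0%) held AGGAAG and 0 held TGANTCA. The 15 genes furthest lower with shEGR2 among those without overlap had 11 windows for 10 genes. Of these windows, 3 (27.3%) held AGGAAG and 2 (18.2%) held TGANTCA. A match describes these letters only.

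Among nerve-related genes, single channel, receptor and guidance genes had large differences, and those of the neural markers were smaller. The tested glial markers ran from -0.44 to 0.69 and the neuronal markers from -0.43 to 0.10. This contrast is one of size and not of called shares, for which the background was 13.2% higher and 16.0% lower. Scn3a, the sodium channel Nav1.3 of developing and injured neurons, measured 8.71, 8.09 and 7.95 with shEGR2_40.9, 9.58, 9.57 and 9.18 with shEGR2_38.9, and 5.71, 5.46 and 6.04 with shGAL. The shGAL arrays were all under the dim level of 6.27, so the difference of 3.11 ± 0.18 (limma adjusted p = 8.59e-11) gives no exact fold. Of 14 neural ion channel and synapse-organiser genes tested, 3 rose and 2 fell, with a median of -0.10. The ATP-gated channel P2rx7 rose by 0.89, or 0.56 as the mean of its probe sets, and Lgi2 fell by 0.83.

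The receptor and ligands of one peptide family went in opposite directions. Calcrl, the shared receptor chain for calcitonin gene-related peptide (CGRP) and adrenomedullin, measured 8.27, 8.37 and 8.54 with shEGR2_40.9, 8.82, 9.35 and 9.08 with shEGR2_38.9, and 5.66, 5.46 and 6.37 with shGAL. The groups lay far apart (difference 2.91 ± 0.18, limma adjusted p = 2.24e-10), with the shGAL mean under the dim level. Calcb, which encodes β-CGRP, measured 7.36, 7.43 and 7.63 with shEGR2_40.9, 7.32, 7.55 and 7.60 with shEGR2_38.9, and 8.47, 8.48 and 8.65 with shGAL, a difference of -1.05 ± 0.12 (limma adjusted p = 3.59e-07). Adm, which encodes adrenomedullin, fell by 0.40. Of the 13 galanin and neuropeptide genes tested, 2 rose and 3 fell. The other riser was Nts, the peptide neurotensin, at 1.55, and mouse Gal differed by -0.05 (limma adjusted p = 0.66).

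Axon guidance genes had 7 rises and 5 falls among 22 tested, and the rises included Robo4, already counted among the endothelial markers. Netrin-1 (Ntn1) rose by 1.33, the semaphorin Sema6a by 1.01 and the semaphorin receptor Plxnd1 by 0.74, and the netrin receptor Unc5c and the ephrin Efnb1 fell by 0.59 and 0.61. Gap43, a growth cone protein also made by repair Schwann cells, rose by 1.71 ± 0.14, with shEGR2_40.9 at 10.19, 9.47 and 9.62, shEGR2_38.9 at 10.70, 10.71 and 10.57 and shGAL at 8.19, 8.54 and 8.78. As the mean of its probe sets Ntn1 rose by 0.65. Gfra2, the neurturin co-receptor, rose by 1.35, or 0.61 as the mean of its probe sets, and here shGAL lay 1.09 below PLKO (limma adjusted p = 6.36e-05) while shEGR2 was within 0.26 of it (0.183).

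The markers of the labelled cells gave small differences. Of the 7 tested glial markers 1 rose and 1 fell. Sox10, the transcription factor that defines Schwann cells, measured 7.67, 7.34 and 7.40 with shEGR2_40.9, 7.54, 7.56 and 7.20 with shEGR2_38.9, and 7.49, 7.64 and 7.54 with shGAL, and was not called (difference -0.10 ± 0.09, limma adjusted p = 0.376). Sox2 rose by 0.69 from an shGAL mean of 6.15, and the neuregulin receptor Erbb3 fell by 0.44. Beside 13.2% of all genes called higher and 16.0% lower, 0 of the 9 neuronal markers rose and 3 fell. These were Map2 at -0.43, Dbh at -0.24 and Th at -0.22, and none was called in limma's fit to the compared arrays alone (adjusted p of 0.0757, 0.185 and 0.0982). Map2 was at -0.27 as the mean of its probe sets and was not called either without the first shGAL array (limma adjusted p = 0.0657), and Dbh lost the call in 9 of 18 alternatives. Of 8 myelin genes tested 2 rose, and mouse Egr2 was 1 of them. Egr2 measured 11.37, 11.54 and 11.56 with shEGR2_40.9, 11.36, 11.44 and 11.96 with shEGR2_38.9, 11.10, 10.97 and 11.06 with shGAL, and 11.84, 11.84 and 11.81 with PLKO. All shEGR2 arrays lay above shGAL, and 5 of the 6 below PLKO (Egr2 difference from shGAL 0.49, limma adjusted p = 0.000343), and the EGR corepressor Nab2 fell by 0.39.

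Most cell cycle genes rose. Of 23 tested, 16 rose and 0 fell, with a median of 0.39 and a range from -0.003 to 0.96. The kinetochore motor Cenpe measured 8.20, 8.39 and 8.23 with shEGR2_40.9, 8.07, 8.39 and 8.10 with shEGR2_38.9, and 7.47, 7.39 and 6.94 with shGAL, so the lowest shEGR2 array was 8.07 and the highest shGAL array 7.47 (limma adjusted p = 2.94e-06). Birc5, which encodes survivin, rose by 0.75, the topoisomerase Top2a by 0.66 (0.21 as the mean of its probe sets), the ribonucleotide reductase subunit Rrm2 by 0.55, cyclin Ccna2 by 0.47 and Pcna by 0.34. Mki67 rose by 0.32 and was not called by limma in the fit to the compared arrays alone (adjusted p = 0.0711) or without the third shGAL array (adjusted p = 0.0526). Top2a and Birc5 were 0.47 and 0.55 below PLKO with shGAL (limma adjusted p of 0.00193 and 0.00109) and 0.19 and 0.20 above it with shEGR2 (0.113 and 0.114). Other genes of the list lay the other way to PLKO: Cenpe and Mki67 were 0.76 and 0.36 above it with shEGR2 (limma adjusted p of 7.52e-05 and 0.00277), and shGAL differed from it by -0.20 and 0.04 (0.384 and 0.836).

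Among chemokine and cytokine genes more fell than rose. Of 20 chemokines and cytokines tested, 2 rose with shEGR2 and 12 fell, with a median of -0.38. Il24, a cytokine of the IL-10 family made by keratinocytes and macrophages, measured 7.71, 8.03 and 7.45 with shEGR2_40.9, 8.20, 7.36 and 7.18 with shEGR2_38.9, and 9.74, 9.66 and 9.37 with shGAL. The lowest shGAL array was well above the highest shEGR2 array (difference -1.93 ± 0.19, a 3.82-fold higher signal with shGAL, limma adjusted p = 5.9e-08). Il33, a nuclear alarmin, measured 7.15, 7.08 and 6.86, then 6.41, 6.30 and 6.24, against 8.51, 7.96 and 8.53 with shGAL, a difference of -1.66 ± 0.13 (limma adjusted p = 4.24e-09).

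These 2 cytokines differed in how they stood to PLKO. Il24 was 1.80 above PLKO with shGAL (limma adjusted p = 6.14e-06) and 0.13 below it with shEGR2 (0.63). Il33 was 1.41 below PLKO with shEGR2 (limma adjusted p = 8.13e-08) and 0.25 above it with shGAL (0.307). Il1f9, which encodes IL-36γ, fell by 1.26, Il18 by 1.06 (to an shEGR2 mean of 6.00, under the dim level), Tnf by 0.77, Il1a by 0.70, the IL-1 receptor antagonist Il1rn by 0.68, Tslp by 0.50 and the monocyte chemoattractant Ccl2 by 0.49. Il1b and Cxcl2 differed by -0.16 and -0.13 and were not called. The 2 that rose, Ccl5 at 0.33 and Csf1 at 0.21, were not called in the fit to the compared arrays alone (adjusted p of 0.0553 and 0.174), and Csf1 was at 0.01 as the mean of its probe sets. Without the first shGAL array, Ccl5 was at 0.21 and Csf1 at 0.12, and neither was called (limma adjusted p of 0.223 and 0.281).

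S100a9, an alarmin of neutrophils and stressed keratinocytes, fell by 1.09, with 9 of 13 granulocyte and mast cell markers dim and 1 of the 2 tested called. Inhba, an activin chain, fell by 1.07 (0.62 as the mean of its probe sets), and Slpi, a protease inhibitor of epithelia, by 0.92. Acute phase genes went both ways: the pentraxin Ptx3 rose by 2.28 ± 0.39 (0.98 as the mean of its probe sets) and Saa3 by 2.20 ± 0.51, with shEGR2_40.9 arrays of Saa3 at 8.99, 6.95 and 10.23 and shGAL arrays at 6.00, 6.20 and 7.65, which overlap.

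Sprr2d, a small proline-rich protein of the cornified envelope, had the lowest difference of all genes: it measured 6.90, 6.28 and 6.03 with shEGR2_40.9, 7.48, 5.81 and 7.16 with shEGR2_38.9, and 9.59, 9.44 and 9.47 with shGAL. The shGAL arrays lay close together and far above the rest (difference -2.89 ± 0.31, limma adjusted p = 2.61e-07), and they were 2.11 above PLKO (limma adjusted p = 0.000309). The shEGR2 values of 6.03 and 5.81 were under the dim level of 6.27, so the difference gives no exact fold. Of 17 keratinocyte genes 1 rose and 5 fell, with a median of -0.18: the keratin Krt6b and the envelope gene Sprr2a1 fell by 0.89 and 0.87, Krt15 rose by 0.50, and the basal keratins Krt5 and Krt14 differed by -0.17 and -0.02 and were not called.

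Of 13 hair follicle genes 1 rose and 6 fell. The median against shGAL was -0.132 with shEGR2_40.9 and -0.335 with shEGR2_38.9, and 4 of the 13 were called higher with shEGR2_40.9 than with shEGR2_38.9 and 0 lower. Hoxc13, the regulator of hair keratin genes, measured 7.75, 8.02 and 8.10 with shEGR2_40.9, 7.69, 7.54 and 8.27 with shEGR2_38.9, and 8.97, 9.18 and 9.28 with shGAL, a difference of -1.24 ± 0.12 (limma adjusted p = 7.7e-08). It was shEGR2 that lay away from PLKO here, 1.07 below it (limma adjusted p = 1.01e-06), with shGAL 0.17 above (0.451). Dlx3 and Foxn1, transcription factors of hair and epidermis, fell by 0.86 and 0.67 and the hair keratin Krt84 by 1.25. Further genes among the 15 largest falls without overlap between the groups were Slfn2 at -1.47 and the epithelial surface protein Plet1 at -1.31. Also in this set was the heparan sulfate sulfotransferase Hs3st3b1 at -1.41, and -0.89 as the mean of its probe sets. The set also held the hedgehog antagonist Hhip at -1.19, the phospholipase Pla2g4e at -1.15 and the actin nucleator Spire1 at -1.15. The glutamate transporter Slc1a1 was in it at -1.15, with an shEGR2 mean of 6.12 under the dim level. Its last members were Fras1 at -1.13, the spermine oxidase Smox at -1.12 and Cdk5r1 at -1.12.

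Some hypoxia and Wnt genes fell with shEGR2, beside 16.0% of all genes called lower and 13.2% higher. Of 24 hypoxia and glycolysis genes 0 rose and 7 fell, with a median of -0.15, against -0.048 over all genes. Among the 7 was Eno1b, which was matched in place of the listed Eno1. Egln3, a prolyl hydroxylase induced by hypoxia, measured 9.97, 10.002 and 9.92 with shEGR2_40.9, 10.10, 10.31 and 9.38 with shEGR2_38.9, and 10.97, 10.77 and 11.15 with shGAL (difference -1.02 ± 0.12, limma adjusted p = 1.52e-06). Hexokinase Hk2 fell by 0.61, the lactate exporter Slc16a3 by 0.55 and Vegfa by 0.46, the last with shEGR2 arrays from 8.83 to 9.15 and shGAL arrays of 9.30, 9.73 and 9.18. Without the second shGAL array the Vegfa difference was -0.30. Of 21 Wnt pathway genes 3 rose and 7 fell, with a median of -0.125. The ligands Wnt7b and Wnt4 fell by 0.74 and 0.52 and the feedback target Axin2 by 0.44.

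**Figure D2:**
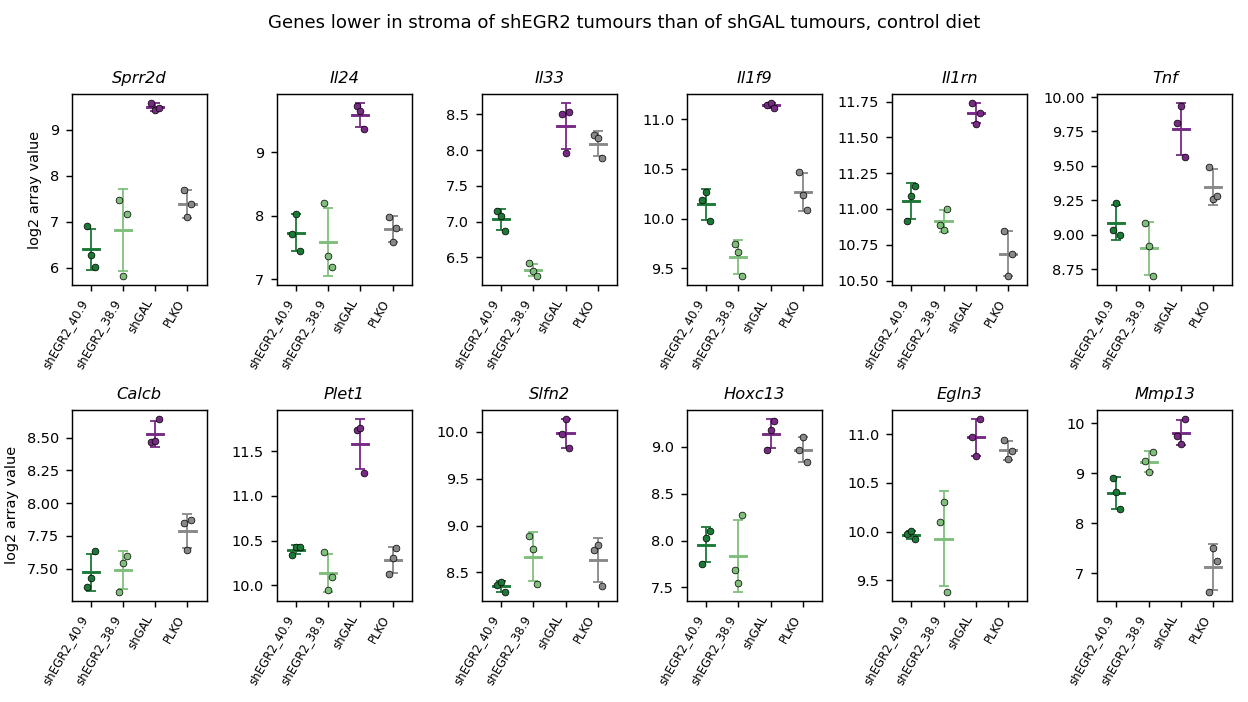
Log2 array values of 12 genes in stroma on the control diet with shEGR2_40.9, shEGR2_38.9, shGAL and PLKO; points are arrays, bars the mean and SD of 3 arrays, and each panel has its own scale that does not start at 0. For every gene shown the 6 shEGR2 arrays lie below the 3 shGAL arrays, as for Il24 with 8.20 as the highest shEGR2 value and 9.37 as the lowest with shGAL.

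The other lists had fewer calls or calls in both directions. Of all genes, 13.2% were called higher with shEGR2 and 16.0% lower. TGF-β and BMP genes had 5 rises and 4 falls among 24, with the ligand Tgfb3 at 1.38 and the co-receptor Tgfbr3 at 0.68. FGF and EGF family genes had 6 and 6 among 21, with the transcription factor Etv5 at 1.03, and Notch genes 5 and 1 among 14, with the endothelial receptor Notch4 at 0.96 and the ligand Dll1 at -0.39. Stress response genes had 8 and 2 among 21, with Chac1 at 0.94 and the chaperone Hspa5 at 0.30. Cholesterol synthesis genes had 3 and 5 among 17, with Insig1 and Stard4 at 0.91 and 0.97 (Stard4 at 0.61 as the mean of its probe sets) and the epoxidase Sqle at -0.49. Genes of fatty acid uptake and oxidation had 4 and 5 among 18, with Fabp4, also an endothelial fatty acid carrier, at 1.38, Acadm at 0.54 and Cpt2 at -0.57. Oxidative phosphorylation genes had 2 and 1 among 24, fatty acid synthesis genes 2 and 4 among 19, NRF2 and haem genes 2 and 2 among 14, and circadian genes 3 and 1 among 16.

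Among the remaining nerve lists, repair Schwann cell genes had 2 and 2 among 10, neurotrophic factors and receptors 1 and 3 among 13, synapse genes 1 and 0 among 10, perineuronal net genes 0 and 3 among 12, and the EGR and NAB family 2 and 1 among 6. Immediate early genes had 1 and 2 among 20. Of markers of other cells, skeletal muscle had 0 and 3 among 9, lymphoid cells 0 and 1 among 5, adipocytes 1 and 1 among 3 and melanocytes 1 and 1 among 2.

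On the PA-rich diet the vessel difference was much smaller. There the same contrast called 981 genes higher with shEGR2 (8.28%) and 966 lower (8.16%), of which 8 and 31 differed by more than 1. The contrast differed between the diets for 1416 genes, 791 with a more positive value on the control diet (6.68%) and 625 with a more negative one (5.28%), or 375 of the latter without the second shGAL array. Of the 19 endothelial genes, 16 were among the 791, as were all 7 lymphatic genes that rose, and 0 of either list were among the 625. The endothelial median stood at 1.496 with control feed and 0.18 with PA-rich feed, and the lymphatic median at 2.07 and 0.11. Hypoxia and glycolysis genes had medians of -0.15 and 0.04, with 7 of 24 among the 625. Wnt pathway genes had medians of -0.125 and 0.14, with 8 of 21 among the 625. From these 2 lists, 0 genes were among the 791.

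Calcrl shows the pattern in single arrays. On the PA-rich diet it measured 5.97, 5.94 and 5.71 with shEGR2_40.9, 6.74, 7.04 and 6.58 with shEGR2_38.9, and 6.66, 5.98 and 6.33 with shGAL, levels at or near the dim limit that overlap between shEGR2 and shGAL. Its difference was 0.01 ± 0.18 there against 2.91 on the control diet, and the change between the diets of 2.90 ± 0.26 had an adjusted p of 3.74e-07 in limma. Prox1 on the PA-rich diet measured 7.43, 7.52 and 6.74, then 8.02, 8.38 and 8.10, against 7.90, 7.39 and 7.09 with shGAL, so the groups overlapped (change between the diets 2.63 ± 0.41, limma adjusted p = 0.000112). The shGAL arrays of Prox1 overlapped between the diets, while all shEGR2 arrays were higher on the control diet.

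Among called genes, the 5 most positive changes between the diets were those of Clic5 at 2.97, an intracellular chloride channel protein, Calcrl, Prox1, Scn3a at 2.57 and Reln at 2.52. The 5 most negative called were Cavin1 at -1.49, a coat protein of caveolae, which was at -0.91 with array weights and -0.92 as the mean of its probe sets, Foxq1 at -1.35, Hoxc13 at -1.29, Hhip at -1.20 and Kazald1 at -1.19. Cavin1, Foxq1 and Kazald1 changed sign: their differences were -0.33, -0.74 and -0.36 on the control diet and 1.16, 0.61 and 0.83 on the PA-rich diet. Hoxc13 was at -1.24 and 0.04.

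Cell cycle and cytokine genes were called on both diets. Cell cycle genes had medians of 0.39 and 0.39, and 15 of the 23 were called higher on the PA-rich diet. Chemokines and cytokines had medians of -0.38 and -0.51, with 14 of 20 called lower on the PA-rich diet and 5 that differed between the diets. Il24 was at -1.73 ± 0.19 and Il33 at -1.94 ± 0.13 there, with changes between the diets of -0.20 and 0.28 that were not called (limma adjusted p of 0.66 and 0.367). Flt1, at -1.21, kept its direction too. Calcb was lower by 1.89 on the PA-rich diet and by 1.05 on the control diet, and these values differed (limma adjusted p = 0.00123).

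**Figure D3:**
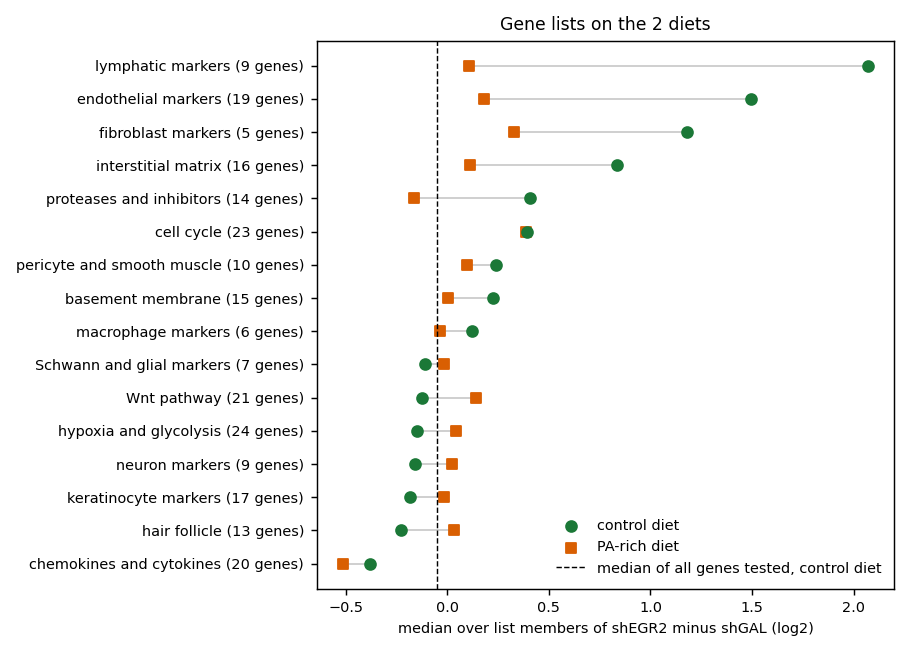
Median over the tested members of each gene list of the shEGR2 minus shGAL difference (log2) on the control diet (circles) and the PA-rich diet (squares); the dashed line is the median of all genes on the control diet, -0.048. Lymphatic and endothelial markers lie at 2.07 and 1.496 on the control diet and at 0.11 and 0.18 on the PA-rich diet, while cell cycle genes lie at 0.39 on both.

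**Figure D4:**
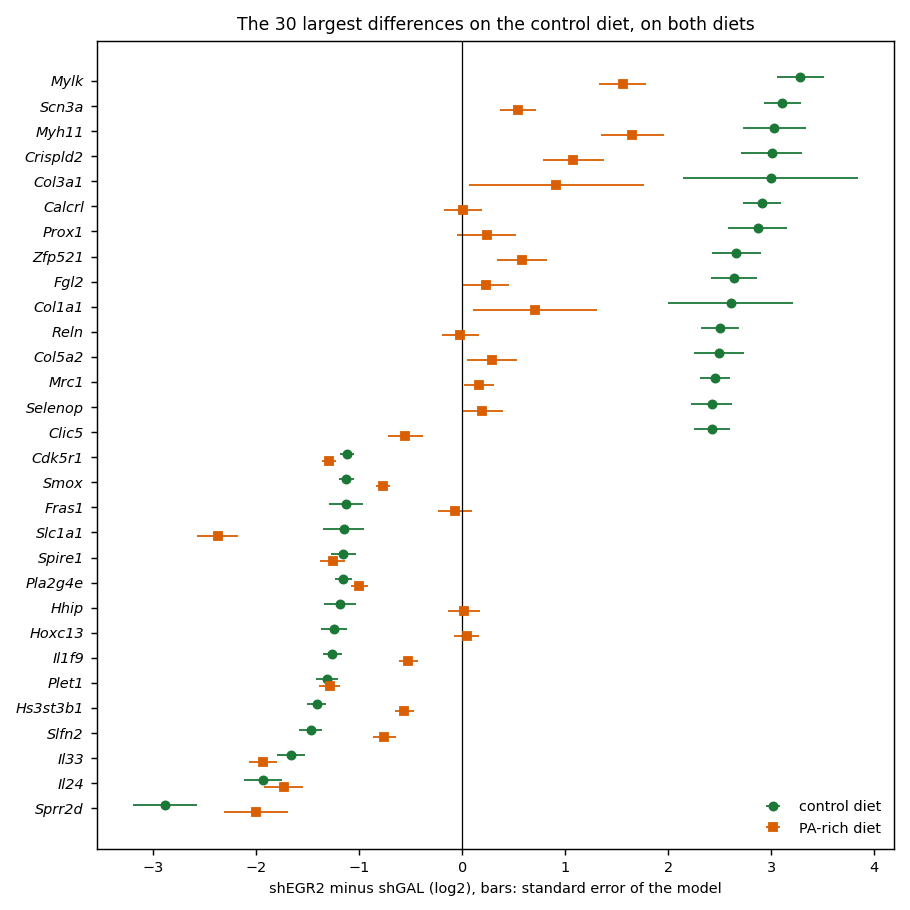
Difference shEGR2 minus shGAL (log2) on both diets, with the standard error of the model. Shown are the 15 largest rises and 15 largest falls on the control diet among called genes without overlap between the groups. Mylk lies at 3.29 and 1.56, Calcrl at 2.91 and 0.01, and Il24 at -1.93 and -1.73.

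The 2 EGR2 hairpins also differed from one another. With shEGR2_40.9 against shEGR2_38.9, 896 genes were higher (7.57%) and 512 lower (4.32%). In the fit to those 6 arrays alone, 180 were higher and 119 lower, and without the second or the third shEGR2_40.9 array the total of 1408 fell to 822 or 863. Dsc1, a desmosomal cadherin of upper epidermis, measured 9.58, 9.17 and 9.34 with shEGR2_40.9, 7.01, 7.13 and 6.32 with shEGR2_38.9, and 8.12, 7.59 and 7.97 with shGAL. The shGAL arrays lay between those of the hairpins, which differed by 2.54 (limma adjusted p = 8.1e-09).

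The next were the hair sheath protein Tchh at 2.20, the skin lipoxygenase Alox12b at 2.17, Ly6g6c at 2.16 and the glutathione transferase Gsta2 at 2.12. Of the 17 keratinocyte genes 7 were higher with shEGR2_40.9 and 0 lower, and against shGAL the median of these genes was -0.01 with shEGR2_40.9 and -0.35 with shEGR2_38.9. On the other side stood Acod1, the itaconate-making enzyme of activated macrophages, at -1.97, the antiviral genes Rsad2 at -1.31 and Oasl1 at -1.12, Scn3a at -1.19 and the endothelial protein Pald1 at -1.11. Rsad2 measured 11.05, 10.88 and 10.73 with shEGR2_40.9, 12.32, 12.29 and 11.98 with shEGR2_38.9, and 10.82, 10.83 and 10.97 with shGAL, so only the shEGR2_38.9 arrays were set apart. Of 17 interferon-response genes 8 were lower with shEGR2_40.9 than with shEGR2_38.9 and 0 higher, and against shGAL the list had 4 rises and 1 fall. Of the 19 endothelial genes 8 were lower with shEGR2_40.9 and 0 higher, and their medians against shGAL were 1.28 with shEGR2_40.9 and 1.65 with shEGR2_38.9.

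**Figure D5:**
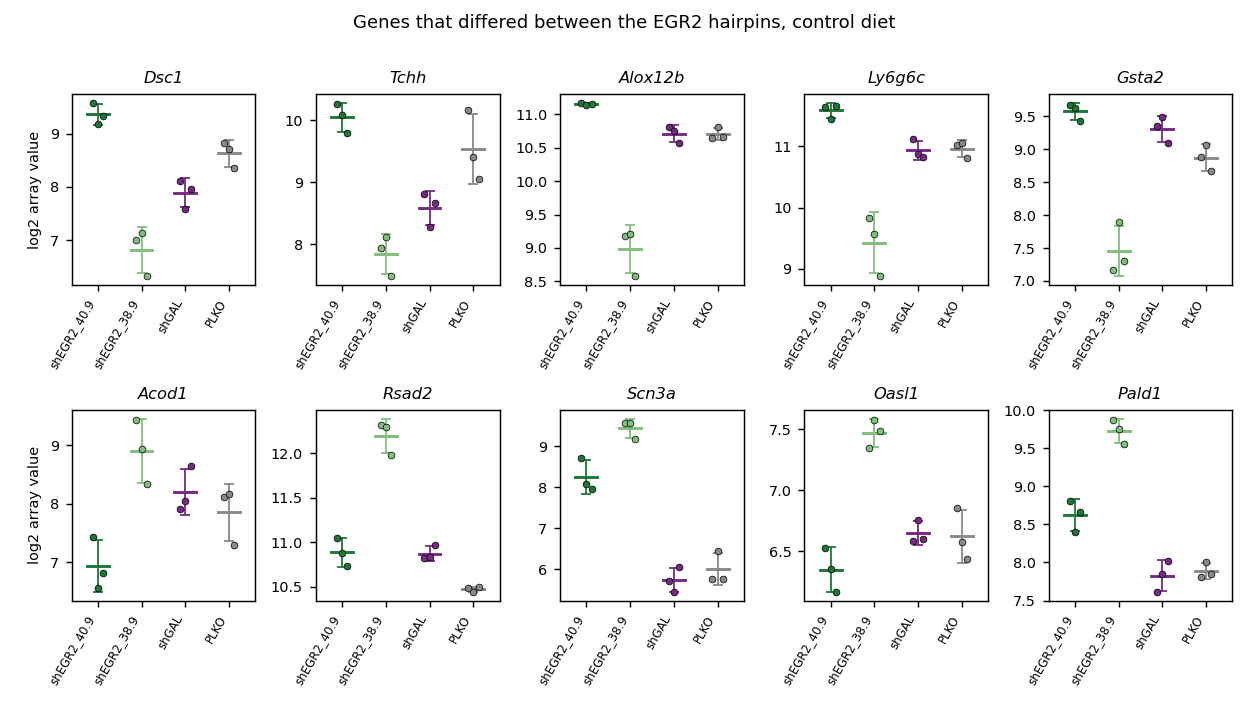
Log2 array values on the control diet of the 10 genes with the largest differences between the EGR2 hairpins, with shGAL and PLKO beside them; points are arrays, bars the mean and SD of 3 arrays, and each panel has its own scale that does not start at 0. The first 5 genes are higher with shEGR2_40.9, as Dsc1 with 9.17 as its lowest value against 7.13 as the highest with shEGR2_38.9, and the last 5 are higher with shEGR2_38.9.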

How the data were processed

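Total RNA of the stroma fraction was hybridised to mouse Affymetrix arrays. The authors deposited log2 intensities made with RMA, per the submitters' processing notes (its version is not given in the sources used here); RMA evens out array distributions, so a shift shared by all genes would not be seen. No array was left out. Of 45141 probe sets, the platform annotation named 1 gene for 28898, several for 551 and no gene for 15692, and the brightest probe set stood for each of 17097 genes. Genes under the limit of 6.27, 5253 in all, were left out, and of 23 nonspecific control probe sets 19 were under it. The precision is limited by 3 arrays a group.

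The 8 group means were fitted to all 24 arrays with limma 3.58.1 in R 4.3.3, with eBayes and Benjamini-Hochberg adjustment over 11844 genes at 0.05, two-sided, and the script was tested on simulated data. Differences between the diets were tested as an interaction term. The gene lists, the rules and the genes named were chosen with earlier results of these data known, so none is independent evidence. The genes named were the 15 largest differences in each direction among called genes whose groups did not overlap, called members of the lists beside a few uncalled ones, Egr2 and Gal, and the 5 largest called in each direction between diets and between EGR2 hairpins. Alternatives were the scan batch or the replicate number as a block, no or a stricter filter, fewer arrays in the fit, renewed quantile normalization, the mean of probe sets, another variance model, array weights, and leaving out each array compared. The contrasts against PLKO and the contrast on the PA-rich diet were fitted in the main model only, with none of these alternatives. The main fit did not pair same-numbered arrays of the control-diet groups compared. Between the EGR2 hairpins, the correlations of their deviations ran from 0.057 to 0.244, against -0.151 to 0.049 for arrays of different number. Between an EGR2 hairpin and shGAL they ran from -0.231 to -0.021. With 3 arrays a group these values cannot show whether arrays were paired. Across the diets, same-numbered arrays of the same hairpin shared a scan batch. The main fit did not pair them, and whether their deviations were correlated was not tested. Promoter windows came from RefSeq, build GRCm38.p6.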

Additional observations from a re-analysis of the deposited data

Results flagged for a closer look

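The shEGR2 minus shGAL difference itself changed between the control and PA-rich diets, by limma's interaction term, for 1416 genes. Values here are the difference on the control diet minus that on the PA-rich diet. Among genes named above that were higher with shEGR2, it was 2.97 for Clic5, 2.90 for Calcrl, 2.63 for Prox1, 2.57 for Scn3a and 2.52 for Reln. It was 2.41 for Fgl2, 2.29 for Mrc1, 2.23 for Selenop, 2.20 for Col5a2 and 2.08 for Zfp521. It was 1.92 for Crispld2, 1.73 for Mylk and 1.38 for Myh11. As means of probe sets it was 1.31 for Zfp521, 1.43 for Col5a2, 0.95 for Mylk and 0.68 for Myh11. The call for Myh11 (limma adjusted p = 0.0394) was lost in 8 of 18 alternatives, with adjusted p up to 0.0913; 5 of the 8 left out 1 array: replicate 1 or 3 of shEGR2_40.9, replicate 2 of shEGR2_38.9, or replicate 1 or 3 of shGAL.

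Among genes lower with shEGR2, the change between the diets was -1.29 for Hoxc13, -1.20 for Hhip, -1.06 for Fras1, -0.85 for Hs3st3b1, -0.74 for Il1f9, -0.71 for Slfn2 and -0.36 for Smox, which was not called without the first shGAL array (limma adjusted p = 0.0753). Slc1a1 went the other way at 1.22, so its difference was more negative on the PA-rich diet. Genes whose difference was negative on the control diet and positive on the PA-rich diet were Cavin1 at -1.49 (-0.91 with array weights, -0.92 as the mean of its probe sets), Foxq1 at -1.35 and Kazald1 at -1.19. Of the genes that separated the EGR2 hairpins, Acod1 changed by 1.51, Rsad2 by 1.35, Pald1 by 1.34 and Oasl1 by 0.79.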

How the results depend on the processing

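The main contrast called 3464 genes. With only the arrays compared in the fit, it called 1710 (980 higher, 730 lower). Likewise, shEGR2_40.9 against shGAL called 1228 (435 lower), and shEGR2_38.9 against shGAL 1563 (849 higher, 714 lower). The contrast of the EGR2 hairpins then called 299 (180 higher, 119 lower). Such fits have fewer arrays to estimate the spread, and they lack the PA-rich arrays, which lay closer together. Mean correlation of an array with its own group was 0.9938 to 0.9965 on the PA-rich diet. For the arrays compared it was 0.9784 to 0.9935. The main fit may thus understate the spread of the arrays compared, and what lowered the counts was not tested. With array weights, shEGR2_40.9 called 3372 (1693 lower) and the diet interaction 2614 (1239 more positive, 1375 more negative); the cause was not tested. Leaving out each array compared gave 2376 to 4026 calls in the main contrast (1214 to 1787 higher, 1162 to 2364 lower), 1313 to 2768 for shEGR2_40.9 (818 to 1493 higher, 492 to 1275 lower), 3117 to 4516 for shEGR2_38.9 (1346 to 1615 higher, 1733 to 2938 lower), 822 to 1810 between hairpins (499 to 1279 higher, 323 to 569 lower), and 1000 to 1864 for the interaction (625 to 996 more positive, 375 to 907 more negative). The lowest values came without the second shGAL array (1162; 1313 and 492; 375) and, between hairpins, without the second shEGR2_40.9 array (822, 499 and 323). Without the third shEGR2_40.9 array the hairpins differed in 863 genes. With the scan batch as a block the main contrast called 1437 higher and 1418 lower. The diet interaction then called 1562 genes (863 more positive, 699 more negative). The replicate number as a block gave 3608 calls (1608 higher, 2000 lower). The main fit did not pair same-numbered arrays of the control-diet groups compared. Of 158 genes named for the main contrast, 140 were called, 133 of them in every alternative fitted, and 0 changed direction; Col3a1, Map2, Th, Dbh, Mki67, Csf1 and Ccl5 lost the call in at least 1. Of 98 called in the interaction, 82 were called in every alternative fitted, and Myh11, Smox and Mmp13 were among the 16 that were not. Signal near the limit of 6.27 gives no fold for genes such as Scn3a and Calcrl.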
